A study of Rattus norvegicus and Bos taurus with 12 samples.

Results

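Genes that carry proteins into the endoplasmic reticulum (ER), fold and glycosylate them there and move them on to the Golgi were followed in both RNA-seq experiments of a study of pulmonary hypertension (PH) and the right ventricle. The genes were chosen by symbol alone, by a pattern that takes the Sec, Srp, Spcs, Ssr, Pdia, Tmed, Kdelr, Lman and Creb3 families, the coatomer (COPI) genes, and P4hb, Calr, Calu, Ddost, Rpn1, Rpn2, Ero1 and Sar1. The pattern found 57 of the 7052 genes listed for adult rat ventricular myocytes (ARVM) and 13 of the 2115 genes listed for calf cardiac fibroblasts (Cfib). By symbol, 10 genes were in both tables, and 60 different genes were in either. Xbp1, Atf4, Atf6 and Canx, which the pattern would also take, are not analysed here.

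ARVM are heart muscle cells of adult Sprague Dawley rats. Freshly isolated ARVM (3 libraries, con4, con5 and con6) were compared with ARVM held for 7 days in PH-CM (3 libraries, ha2, ha209 and ha211). PH-CM is serum-free medium conditioned by Cfib of calves with PH. The PH Cfib (3 libraries) came from the right ventricle of neonatal calves kept at reduced air pressure, and the CO Cfib (3 libraries) from control calves at ambient Denver altitude. Both were low-passage primary cultures. In the sample labels the treatment is instead given as serum, from cows at low altitude for the controls and at high altitude for the others, and the names used here follow the paper. The ARVM groups differed in time in culture as well as in medium, so that effects of PH-CM and of culture cannot be told apart. The paper describes the Cfib of each group as cells of different animals. For ARVM nothing in the labels says which libraries came from separate animals, so that their p-values measure the spread between these libraries, which may be technical.

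Most secreted and membrane proteins enter the ER while they are being made. The signal recognition particle (SRP) brings the ribosome to the Sec61 channel, the signal peptidase cuts off the leading peptide, and the oligosaccharyltransferase attaches sugar chains to asparagines. Disulfide isomerases and calcium-binding chaperones then fold the chain, COPII vesicles carry it out to the Golgi, and COPI vesicles bring back receptors and strayed ER proteins. Fibroblasts that lay down collagen rely heavily on this route, and membrane-bound transcription factors such as the Creb3 family raise its capacity.

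The ARVM values are normalised reads, counts that the authors divided by a size factor of each library, and the 6 libraries held 12122463 to 18842171 reads on the listed genes. For Cfib the values are a relative signal that was adjusted for gene length and sequencing yield, and the depth is unknown. Both tables hold only genes that the authors had selected for a difference between the groups. In ARVM 97.6% of all listed genes passed the threshold used here (adjusted p of 0.05, limma on log2(value + 1)), and in Cfib 97.5% did. A pass by a member therefore says little, and the members are described by their direction and size beside those of all listed genes. The groups did not overlap in any of the 57 ARVM members or 13 Cfib members, which was also true of 100% of the listed genes in both tables. Among CO Cfib, library 3 stood apart, being the farthest from its group in 11 of the 13 members and the lowest in 9. Library distances were taken on log2(value + 1), from the mean of the rest of the group. Their medians over the 13 members were 0.071 to 0.16 in CO Cfib and 0.025 to 0.050 in PH Cfib. Why the PH libraries lay closer together was not tested. Among PH-CM ARVM, library ha209 was the lowest in 33 of the 57 members.

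Markers of several cell types moved along with the ARVM groups. The cardiomyocyte markers (12 of 12 listed) summed to between 1677606 and 1699923 normalised reads in freshly isolated ARVM and to between 166807 and 205217 in PH-CM, with 11 lower and 1, Myh7, higher. Fibroblast markers (9 of 10 listed, all higher) rose from a sum of 1443 to 1953 to one of 86958 to 129828. Macrophage markers (8 of 10 listed, all higher) rose from 235 to 285 up to 6899 to 10371. The defining fibroblast gene Thy1 was listed at 0 in 2 of the 3 fresh libraries, as were the macrophage genes Ptprc and Aif1, and no marker was at 0 in all libraries. Endothelial markers (8 of 8 listed) fell in 7 cases and summed to 9568 to 11358 in fresh cells and 3755 to 4262 in PH-CM. Smooth muscle and pericyte markers (8 of 8 listed) summed to 6141 to 6878 and to 9448 to 11345, with 5 higher and 3 lower. The cells labelled as ARVM thus held muscle markers in both groups, at different sums. In bulk RNA, fewer cells of a type and less RNA per cell cannot be told apart, and the part of these shifts in the results that follow was not tested.

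Most genes of the route were higher in ARVM held in PH-CM. Of the 57 members, 50 rose, 6 fell and 1 did not pass the test, where 53.9% of all listed genes rose and 43.7% fell. The mean was higher in PH-CM for 89.5% of the members and for 55.1% of all listed genes. The median log2 fold change of the members was 0.67, with quartiles of 0.48 and 0.98, against a median of 0.37 and quartiles of -0.67 and 1.53 over all listed genes. The members were thus more often on 1 side, and their changes lay within a narrower band than those of the table as a whole. The counts of each role below are to be read beside these shares of all listed genes. In the fresh libraries 0.697%, 0.672% and 0.687% of the summed values of listed genes fell on members, and in the PH-CM libraries 1.47%, 1.41% and 1.47%. The sums over the members were 127266 to 133797 normalised reads in fresh cells and 193605 to 210215 in PH-CM, while the sum over all listed genes went the other way, from 18518235 to 19184739 down to 13752013 to 14253656.

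**Figure D1:**
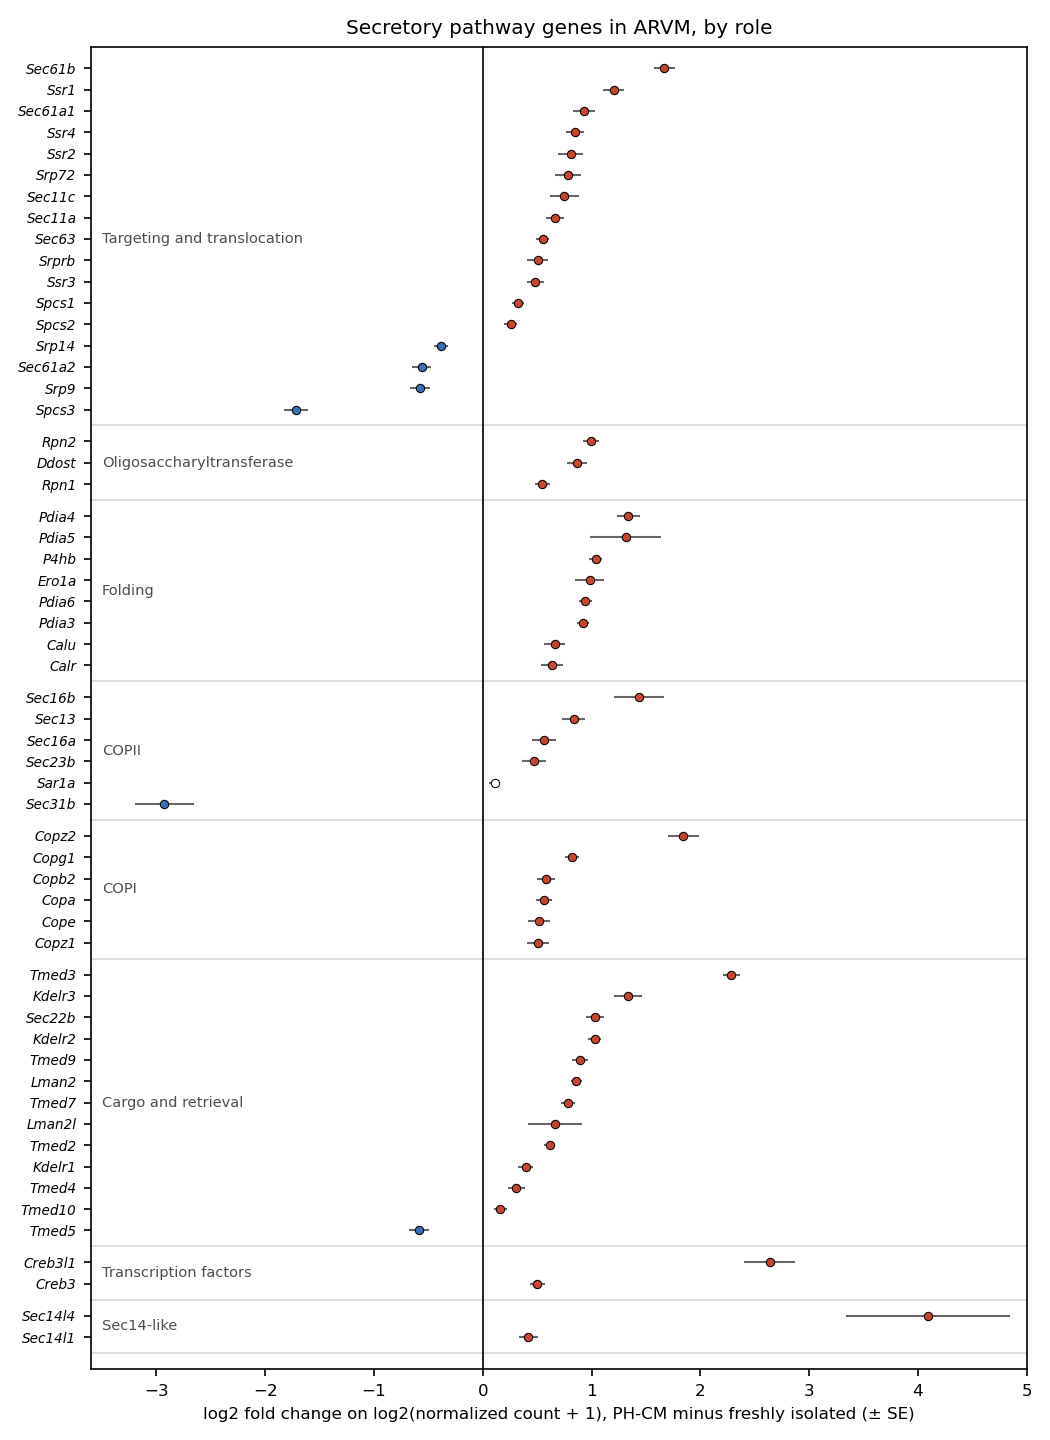
Log2 fold changes (x axis, PH-CM against freshly isolated ARVM, limma on log2(value + 1)) of the 57 genes, grouped by role; points are estimates from 3 libraries per group and bars are 1 standard error; the open point is Sar1a, which did not pass the threshold. The points lie to the right of 0 for 51 genes and to the left for 6, from -2.93 for Sec31b to 4.09 for Sec14l4.

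The folding genes, enzymes and calcium-binding proteins alike, rose by different amounts. All 8 were higher, where 53.9% of all listed genes rose. Their log2 fold changes ran from 0.63 to 1.34, with a median of 0.96. P4hb, a disulfide isomerase that is also a subunit of the collagen prolyl hydroxylase, was at 10989, 11500 and 11333 normalised reads in the fresh libraries and at 23845, 22407 and 23207 in PH-CM. The 3 libraries of each group lay close together, with a wide gap between the groups, and the log2 fold change was 1.04 ± 0.06 (SE, n = 3 per group, limma adjusted p = 2.41e-06). Pdia4, another disulfide isomerase of the ER, was at 1312, 1185 and 1063 in fresh cells and at 3188, 2644 and 3180 in PH-CM, with PH-CM library ha209 the lowest of its group (1.34 ± 0.10, limma adjusted p = 1.13e-05). Pdia5 showed nearly the same fold change, 1.31 ± 0.32, with the widest error of the group. Its reads before division by the size factor were 11, 14 and 10 against 49, 46 and 38. Ero1a, the oxidase that recharges these enzymes, had a log2 fold change of 0.98, Pdia6 of 0.94 and Pdia3 of 0.92. The calcium-binding proteins Calr (calreticulin, 0.63) and Calu (calumenin, 0.66) had the smallest rises.

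Subunits of the translocation machinery did not all move one way. Of 17, 13 rose and 4 fell, with a median log2 fold change of 0.55, where 53.9% of all listed genes rose and 43.7% fell. Sec61b, the small beta subunit of the channel, was at 1325, 1121 and 1247 normalised reads in fresh cells and at 4227, 3453 and 4096 in PH-CM. Each PH-CM library was far above each fresh one (1.67 ± 0.10, limma adjusted p = 2.54e-06). Ssr1, a subunit of the translocon-associated protein complex, rose from 1367, 1219 and 1452 to 3118, 2746 and 3449 (1.20 ± 0.10, limma adjusted p = 1.73e-05), and its partners Ssr2, Ssr3 and Ssr4 had log2 fold changes of 0.81, 0.48 and 0.85. Sec63, which couples the channel to the lumenal chaperone, had one of 0.55.

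The genes for the pore-forming alpha subunit went in opposite directions. Sec61a1 was at 2288, 2060 and 2143 in fresh cells and at 4227, 3575 and 4639 in PH-CM (0.93), while Sec61a2 was at 832.4, 922.2 and 812.0 and then at 612.6, 554.8 and 570.4 (-0.56). Within each library, the ratio of Sec61a1 to Sec61a2 was 2.75, 2.23 and 2.64 in fresh cells and 6.90, 6.44 and 8.13 in PH-CM. It was 2.82-fold higher in PH-CM. Such a ratio within a library does not depend on the scaling of whole libraries. These and the other pairs were chosen after the values had been seen and are described with no test. For a gene that rose set against one that fell, separate groups are given by the choice. Near-identical copies can share reads, so the split between the alpha genes is uncertain.

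Spcs3, a subunit of the signal peptidase, fell the most among the translocation genes. It was at 2800, 2392 and 2050 normalised reads in fresh cells and at 704.8, 754.1 and 729.5 in PH-CM, and even the highest PH-CM library was far below the lowest fresh one (-1.71 ± 0.11, limma adjusted p = 4.52e-06). Other subunits of the same enzyme did not fall with it. Sec11a and Sec11c, the catalytic subunits, had log2 fold changes of 0.67 and 0.75, and Spcs1 and Spcs2, which are accessory, of 0.33 and 0.26. The ratio of Spcs1 to Spcs3 rose 4.12-fold and that of Sec11a to Spcs3 rose 5.21-fold.

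The SRP genes were split as well. Srp9 and Srp14, which together form the Alu domain that slows translation, were lower in PH-CM, with Srp9 at 2290, 2160 and 1937 in fresh cells and 1543, 1449 and 1285 in PH-CM (-0.58 ± 0.09, limma adjusted p = 0.000551) and Srp14 with a log2 fold change of -0.38. Srp72, a protein of the S domain, the end that recognises signal peptides, was at 281.7, 237.8 and 268.6 and then at 436.3, 467.6 and 449.4 (0.78), and Srprb, a subunit of the receptor for SRP, had a change of 0.51. The ratio of Srp72 to Srp14 rose 2.24-fold, while that of Srp14 to Srp9 differed by 1.15-fold.

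**Figure D2:**
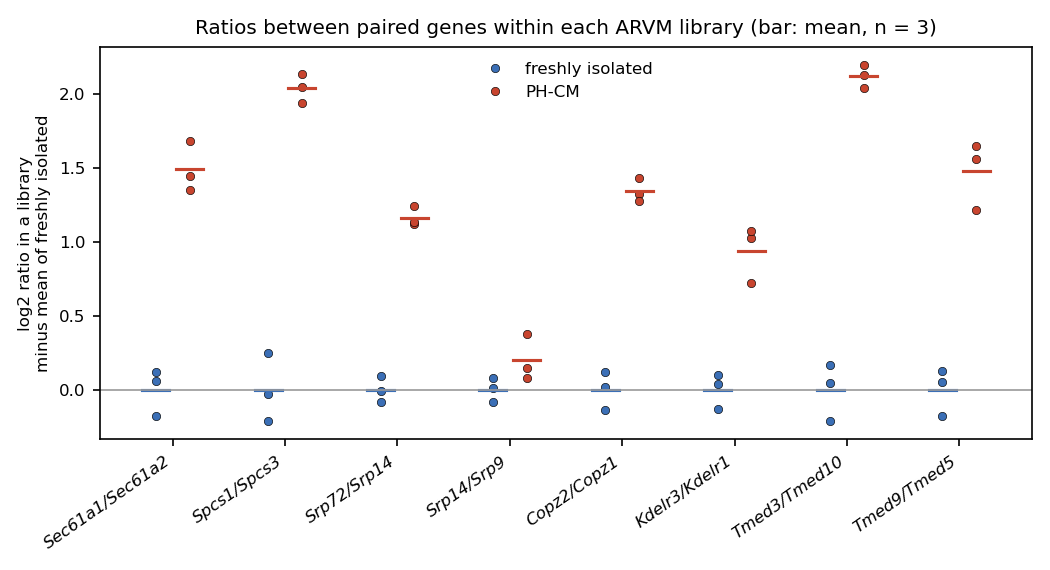
Ratios of paired genes within each ARVM library, as log2 of the ratio minus the mean of the fresh libraries (y axis); points are the 3 fresh and 3 PH-CM libraries and bars are means. Of the 8 pairs shown, Tmed3 to Tmed10 and Spcs1 to Spcs3 moved the farthest, by 4.36-fold and 4.12-fold, and Srp14 to Srp9 the least, by 1.15-fold.

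All 3 listed members of the oligosaccharyltransferase rose. Rpn2 was at 2955, 2586 and 2742 in fresh cells and at 5613, 5091 and 5830 in PH-CM (0.997 ± 0.07, limma adjusted p = 9.4e-06). Ddost was at 1860, 2262 and 2341 and then at 4008, 3676 and 4046 (0.87 ± 0.09). Rpn1 had the smallest change, 0.55. In each of these the lowest PH-CM library was above the highest fresh one, but the groups were also free of overlap in 100% of the listed genes.

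Among the COPII genes 4 rose, 1 fell and 1 did not pass, where 53.9% of all listed genes rose and 43.7% fell. Their median log2 fold change was 0.52, against 0.37 over all listed genes. Sec31b, a paralog of the outer coat protein, was at 262.7, 192.8 and 176.6 normalised reads in fresh cells and at 27.2, 31.9 and 21.2 in PH-CM, a mean 7.87-fold lower (-2.93 ± 0.27, limma adjusted p = 3.16e-05). It fell further than any other member. Its coat partner Sec13 went from 1212, 1161 and 963.8 to 2012, 1794 and 2147 (0.84), so that the ratio of Sec13 to Sec31b rose 14.1-fold. The paralog Sec31a was not among the listed COPII genes, so this ratio does not describe the outer coat as a whole. Sec16b, one of the scaffold proteins of ER exit sites, had a log2 fold change of 1.44, Sec16a of 0.56, and Sec23b, of the inner coat, of 0.47. Sar1a, the GTPase that starts the coat, was at 4401, 4273 and 4431 and then at 4792, 4583 and 4782 (0.11 ± 0.05). Its adjusted p from limma was 0.0578. Without PH-CM library ha209 it passed, with an adjusted p of 0.0321 from limma.

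All 6 listed COPI genes rose. Copz2, the less common zeta subunit, led with 202.6, 187.4 and 192.1 in fresh cells and 722.2, 586.7 and 806.5 in PH-CM (1.84 ± 0.14, limma adjusted p = 1.11e-05). Its paralog Copz1 had a log2 fold change of 0.51, and the ratio of Copz2 to Copz1 rose 2.54-fold. Copg1 went from 1799, 1748 and 1607 to 3072, 2888 and 3142 (0.82 ± 0.07). The coat subunits Copa, Copb2 and Cope had changes of 0.56, 0.58 and 0.52.

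Genes of cargo transport and retrieval, with the KDEL receptors and Sec22b counted among them, rose in 12 of 13 cases. Their median log2 fold change was 0.79. Tmed3, a p24 family protein that cycles between ER and Golgi, was at 515.9, 596.6 and 579.5 normalised reads in fresh cells and at 2822, 2601 and 2813 in PH-CM, a mean 4.87-fold higher (2.28 ± 0.08, limma adjusted p = 2.19e-07). No fresh library came near the PH-CM libraries. Its relatives were spread from -0.58 to 0.89. Tmed5 fell from 1499, 1317 and 1280 to 891.6, 982.7 and 853.9 (-0.58), Tmed9 had a change of 0.89, Tmed7 of 0.79, Tmed2 of 0.62 and Tmed4 of 0.31. Tmed10 had a change of 0.16 (limma adjusted p = 0.0309), which missed the threshold in 8 of 13 alternatives, among them without fresh library con5 or con6 or PH-CM library ha2 or ha209. Lman2l, a lectin relative, had a change of 0.66 on 64.9, 107.1 and 86.8 against 156.5, 121.6 and 127.8, and missed the threshold in 4 alternatives (without fresh library con4 or con6 or PH-CM library ha2 or ha211).

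The KDEL receptors, which catch strayed ER proteins in the Golgi, rose to different extents. Kdelr3 was at 455.8, 437.0 and 465.9 in fresh cells and at 1280, 926.6 and 1261 in PH-CM (1.34 ± 0.13, limma adjusted p = 4.39e-05). Kdelr2 was at 1287, 1392 and 1323 and then at 2612, 2706 and 2852 (1.03 ± 0.06), and Kdelr1 had a change of 0.40. The ratio of Kdelr3 to Kdelr1 rose 1.92-fold and that of Kdelr2 to Kdelr1 rose 1.55-fold, and the libraries of the groups did not overlap in either ratio. Sec22b, a membrane fusion protein between ER and Golgi, went from 1037, 934.0 and 1101 to 2186, 1926 and 2168 (1.03).

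**Figure D3:**
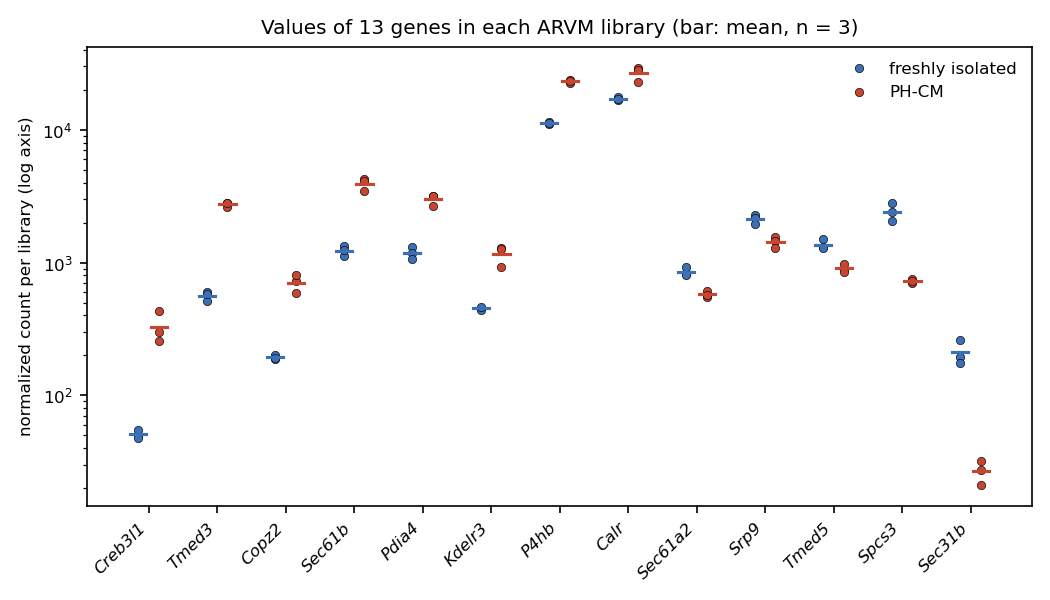
Normalised read counts (y axis, log scale) of 13 members in each of the 3 freshly isolated and 3 PH-CM ARVM libraries; bars are group means. Creb3l1, Tmed3, Copz2, Sec61b, Pdia4, Kdelr3, P4hb and Calr are higher in each PH-CM library, and Sec61a2, Srp9, Tmed5, Spcs3 and Sec31b are lower in each.

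Of the transcription factors, Creb3l1 rose the most. This membrane-bound factor, also called OASIS, is known for driving collagen and secretory genes in bone. It was at 50.6, 54.6 and 47.5 normalised reads in fresh cells and at 301.7, 258.0 and 428.2 in PH-CM, a mean 6.47-fold higher (2.64 ± 0.23, limma adjusted p = 2.54e-05). PH-CM library ha211 was the highest and ha209 the lowest of its group. Creb3, its relative, had a change of 0.50 (limma adjusted p = 0.000259). Sec14l1 and Sec14l4 belong to the Sec14-like lipid-binding proteins and share only letters with the Sec genes. Before division by the size factor, Sec14l4 had 3, 7 and 0 reads in fresh cells and 77, 84 and 65 in PH-CM. Sec14l1 had a log2 fold change of 0.42. Without this pair, 48 of 55 members rose and 6 fell.

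The upstream sequence of the rat members was searched for the letters to which the ER stress factors bind, as a description of these promoters. Of the 57 members, 49 had a RefSeq promoter (assembly GRCr8, 250 bases before the start, both strands searched). The full ER stress response element, CCAAT and CCACG with 9 bases between them, was in 1 member, Calr, or 2.04%, and in 0.0765% of all 27457 promoters and 0.189% of the 5282 promoters of listed genes. Its second form, ATTGG and CCACG with 1 base between them, was in 0 members and in 0.0437% of all promoters. The core TGACGTGG was in 2 members, Copb2 and Kdelr3 (4.08%), against 0.55% of all and 0.738% of listed promoters. TGACGTCA, the cAMP response element, was in 1 member, Cope, against 1.697% of all and 2.78% of listed promoters. The short core CCACG, which overlaps the first 3 of these, was in 31 of 49 members (63.3%), in 28.0% of all and in 40.4% of listed promoters. Among members that rose it was in 29 of 44, and among those that fell in 2 of 5. The GC content of the window had a median of 60% in members and in listed genes and 52% in all promoters, and its part in these shares was not tested. A match describes the letters and is not evidence of binding.

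The stretches below show the full element in Calr, the longer core in Kdelr3 and Copb2, the short core alone in P4hb, and Spcs3, which fell and has no CCACG in its window. They were chosen after the values had been seen. Each is read 5′ to 3′ on the gene's strand and lies upstream of the gene's start. Capitals mark the match, here written as the reverse complement of the letters searched.
Calr (GRCr8, chr19:40213117-40213236, plus strand): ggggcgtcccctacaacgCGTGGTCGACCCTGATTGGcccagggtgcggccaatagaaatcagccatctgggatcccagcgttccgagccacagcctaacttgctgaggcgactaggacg
Kdelr3 (GRCr8, chr7:112959491-112959610, plus strand): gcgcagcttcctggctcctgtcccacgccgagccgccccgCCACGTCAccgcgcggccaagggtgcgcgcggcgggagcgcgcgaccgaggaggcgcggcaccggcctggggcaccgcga
Copb2 (GRCr8, chr8:108040567-108040686, plus strand): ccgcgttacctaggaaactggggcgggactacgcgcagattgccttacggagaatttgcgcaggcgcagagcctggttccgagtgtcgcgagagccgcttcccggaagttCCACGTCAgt
P4hb (GRCr8, chr10:106346930-106347049, minus strand): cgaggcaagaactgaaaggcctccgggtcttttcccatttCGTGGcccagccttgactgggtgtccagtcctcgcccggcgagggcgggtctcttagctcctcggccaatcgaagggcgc
Spcs3 (GRCr8, chr16:44038301-44038420, plus strand): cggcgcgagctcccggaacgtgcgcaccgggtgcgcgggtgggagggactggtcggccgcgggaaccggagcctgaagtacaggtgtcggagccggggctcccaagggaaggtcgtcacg

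In Cfib, 12 of the 13 listed members were higher in cells of PH calves and 1, SRP54, was lower, where 58.2% of all listed genes rose and 39.4% fell. The mean was higher in PH Cfib for 92.3% of the members and for 59.7% of all listed genes. The median log2 fold change of the members was 0.57, against 0.33 over all listed genes. Members took 1.35%, 1.43% and 1.18% of the summed values of listed genes in the CO libraries and 1.79%, 1.81% and 1.82% in the PH libraries, with CO Cfib 3 the lowest. Without CO Cfib 3 the counts were again 12 and 1, and the median was 0.45. When each library was rescaled by the median of ratios, the median log2 fold change went from 0.33 to 0.07 over all listed genes and from 0.57 to 0.29 over the members. Then 6 members rose (DDOST, KDELR3, LMAN1, P4HB, PDIA4 and SEC23B) and SRP54 fell, where 39.7% of all listed genes rose and 41.1% fell. KDELR2 (0.10), SEC63 (0.13) and CREB3L2 (1.56) no longer passed, and TMED7 (-0.11), TMED10 (-0.0090) and KDELR1 (-0.0053) turned in sign without passing the test. The rescaling factors came from the listed genes alone, which were selected for a difference and were mostly higher in PH Cfib. Such a rescaling draws the median of the listed genes toward 0, so these turns and lost calls cannot show which scaling is right.

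Among the larger rises, DDOST, a subunit of the oligosaccharyltransferase, was at 101.4, 104.8 and 85.1 in CO Cfib and at 198.2, 211.02 and 206.9 in PH Cfib. Its groups were well apart (1.08 ± 0.09, SE, n = 3 per group, limma adjusted p = 8.09e-05), and the change was 0.99 without CO Cfib 3. PDIA4 was at 104.4, 110.1 and 105.6 and then at 163.7, 167.6 and 163.6 (0.62 ± 0.05, limma adjusted p = 8.83e-05). P4HB was at 335.6, 380.2 and 289.5 and then at 506.0, 535.7 and 538.8 (0.66 ± 0.11, limma adjusted p = 0.00156). The ratio of PDIA4 to P4HB within a library overlapped between the groups and differed by 0.978-fold. That of DDOST to P4HB rose 1.34-fold without overlap.

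LMAN1, the lectin that carries clotting factors and other glycoproteins out of the ER, was at 79.9, 83.8 and 47.0 in CO Cfib and at 119.0, 123.1 and 121.0 in PH Cfib. CO Cfib 3 was far below the other CO libraries, and the log2 fold change was 0.82 ± 0.21 with it and 0.56 ± 0.05 without it. CREB3L2, a membrane-bound factor known for raising secretory capacity in cartilage, rested still more on that library. It was at 16.4, 17.1 and 2.10 in CO Cfib and at 36.7, 34.0 and 31.6 in PH Cfib, with a log2 fold change of 1.82 ± 0.66 (limma adjusted p = 0.0324). Without CO Cfib 3 it was 0.98 ± 0.07 (limma adjusted p = 2.34e-05). With all CO libraries, it missed the threshold when any of the 3 PH libraries was left out, and also after the rescaling (1.56, limma adjusted p = 0.0655).

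KDELR3 was at 130.6, 118.7 and 107.6 in CO Cfib and at 173.5, 180.3 and 191.2 in PH Cfib (0.61 ± 0.09, limma adjusted p = 0.000719). KDELR2 was at 144.5, 139.1 and 153.0 and then at 192.6, 191.3 and 186.4 (0.38, but 0.10 and not past the threshold after the rescaling), and KDELR1 at 111.0, 108.4 and 122.7 and then at 143.5, 137.5 and 134.9 (0.28, though below 0 after the rescaling). The ratio of KDELR3 to KDELR1 rose 1.26-fold and that of KDELR2 to KDELR1 by 1.07-fold, without overlap in either. TMED10 (98.6 to 100.1 in CO, 118.8 to 121.5 in PH, log2 fold change 0.28) and TMED7 (135.5 to 137.8, 151.5 to 159.0, 0.18) had small changes on narrow spreads, and both, like KDELR1, changed sign after the rescaling. TMED7 also missed the threshold without PH Cfib 2 or 3.

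The COPII subunit SEC23B was at 43.0, 47.8 and 34.97 in CO Cfib and at 62.4, 62.8 and 61.5 in PH Cfib (0.57 ± 0.11, limma adjusted p = 0.00293). SEC63 was at 33.2, 32.9 and 30.2 and then at 43.7, 42.2 and 42.9 (0.41, but 0.13 and not past the threshold after the rescaling). SRP54, the SRP protein that binds the signal peptide, was at 42.4, 44.2 and 46.2 and then at 38.1, 38.4 and 40.6 (-0.18, limma adjusted p = 0.0242). It missed the threshold without PH Cfib 1 or 2 and was at -0.46 after the rescaling. The ratio of SEC63 to SRP54 was 0.784, 0.746 and 0.654 in CO Cfib and 1.15, 1.10 and 1.06 in PH Cfib, a 1.52-fold rise that does not depend on scaling.

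**Figure D4:**
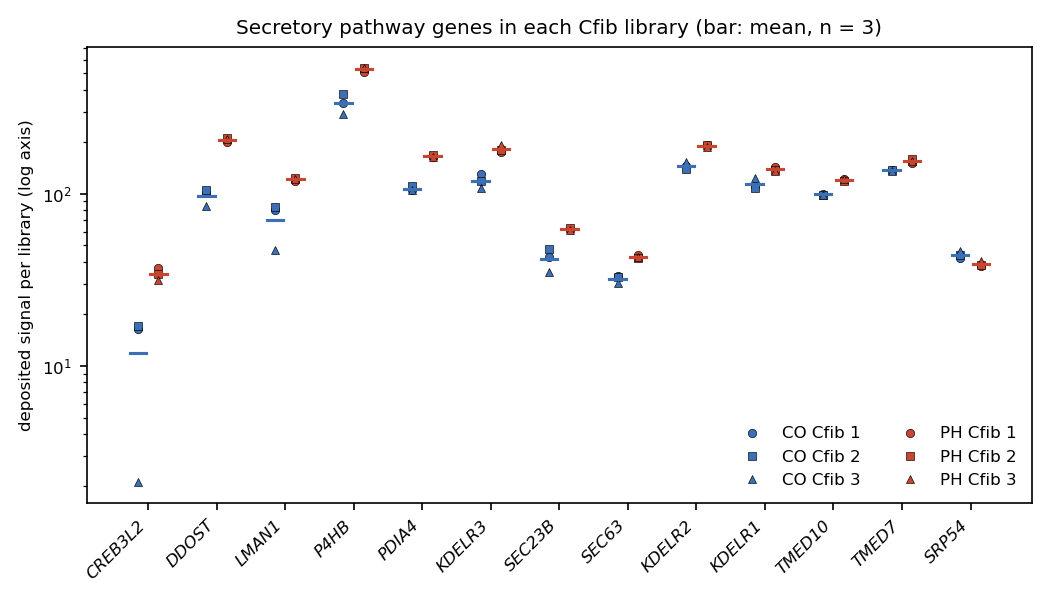
Deposited signal (y axis, log scale) of the 13 members in each CO and PH Cfib library; bars are group means of 3 libraries. As deposited, 12 genes are higher in PH Cfib and SRP54 is lower, the CO Cfib 3 triangle lies far below its group for CREB3L2 (2.10) and LMAN1 (47.0), and TMED7, TMED10 and KDELR1 change sign after rescaling by the median of ratios.

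Cell type markers in the Cfib table were few. None of the 12 cardiomyocyte and 8 endothelial markers was among the listed genes. The 3 listed fibroblast markers of 10, COL1A2, FBLN1 and POSTN, were higher in PH Cfib and summed to 1994 to 2647 in CO and 6406 to 6702 in PH. Of the 2 listed macrophage markers, CD68 was higher and CD14 lower, and of 6 listed smooth muscle and pericyte markers 5 were higher. The part of these in the members' changes was not tested.

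The 10 genes in both tables were DDOST, KDELR1, KDELR2, KDELR3, P4HB, PDIA4, SEC23B, SEC63, TMED10 and TMED7. As deposited, all 10 rose in both experiments, where 53.9% of all listed ARVM genes and 58.2% of all listed Cfib genes rose. The share over all genes listed in both experiments was not computed. After the rescaling of Cfib, 5 of the 10 still rose in both, where 39.7% of all listed Cfib genes rose. KDELR2 and SEC63 then no longer passed in Cfib, and TMED7, TMED10 and KDELR1 were below 0 there. The log2 fold change was larger in ARVM for 7 of them and larger in Cfib for DDOST, SEC23B and TMED10. For PDIA4 it was 1.34 ± 0.10 in ARVM and 0.62 ± 0.05 in Cfib, for KDELR2 1.03 ± 0.06 and 0.38 ± 0.06, and for SEC63 0.55 ± 0.06 and 0.41 ± 0.06. The Pearson r over these 10 genes was 0.438, where the genes are not independent replicates. The species, contrasts and units differ, and no test between the experiments was made. SRP54, LMAN1 and CREB3L2 were listed in Cfib alone, and 47 members in ARVM alone. A Creb3 family factor of the OASIS kind was thus listed in each experiment, Creb3l1 in ARVM and CREB3L2 in Cfib.

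**Figure D5:**
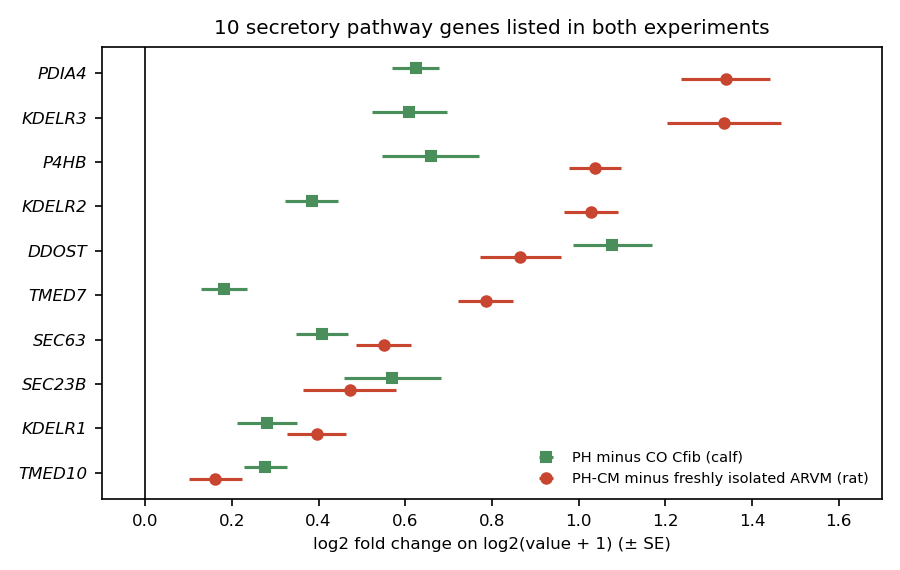
Log2 fold changes (x axis) of the 10 genes in both tables (y axis), with squares for PH against CO Cfib and circles for PH-CM against freshly isolated ARVM; bars are 1 standard error from 3 libraries per group. With the values as deposited all points lie to the right of 0, the circle is to the right of the square in 7 genes, and TMED7, TMED10 and KDELR1 fall below 0 in Cfib after rescaling by the median of ratios.

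Other genes of the route, together with ER stress targets and sensors, were counted from 5 further lists that share no gene with the members. The stress list gave 19 of the listed ARVM genes and 6 of the listed Cfib genes counted here. Some of its genes, such as Asns and Chac1, are not part of the route. Of their 134 genes, 86 were listed in ARVM, of which 68 (67 without Snd1) rose and 17 fell with a median log2 fold change of 0.47. Over all listed ARVM genes, 53.9% rose and 43.7% fell, with a median of 0.37. In Cfib 29 were listed, of which 22 rose and 4 fell with a median of 0.34. Over all listed Cfib genes, 58.2% rose and 39.4% fell, with a median of 0.33. The counts of each list below are to be read beside these shares. After the rescaling 11 of the 29 rose and 5 fell, where 39.7% of all listed genes rose and 41.1% fell.

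Other folding and quality control genes had the largest shifts in ARVM, with 19 of 21 higher, 2 lower and a median log2 fold change of 1.03. Fkbp10, a prolyl isomerase that assists collagen folding, was at 208.9, 248.5 and 233.5 in fresh cells and at 2576, 2219 and 2740 in PH-CM (3.44), and its relative Fkbp7 had a change of 2.08. Tmx4, a membrane thioredoxin, was lower (-1.77), as was Vcp, the ATPase that pulls misfolded proteins out of the ER membrane (-0.37). In Cfib 7 of 8 were higher, led by FKBP10 (1.05) and QSOX1 (0.84), a sulfhydryl oxidase, and VCP was lower (-0.27). After the rescaling 5 of these rose and 1 fell.

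ER stress targets and sensors gave 15 higher and 4 lower of 19 in ARVM, with a median of 0.43, close to that of all listed genes. Asns, asparagine synthetase, had a change of 2.36 and Chac1, a glutathione-degrading enzyme, of 1.34. Both are known targets of the Atf4 branch. Derl3 (-0.87) and Herpud1 (-0.74), which serve the removal of misfolded proteins, were lower. In Cfib all 6 listed rose, TRIB3 by 1.03 and SEL1L by 0.85, with a median of 0.84, and 5 of them also rose after the rescaling.

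The glycan assembly genes rose in 9 of 10 cases in ARVM, with Tusc3 (2.04) and Alg9 (1.49) highest and Dpm1 (-0.46) lower. In Cfib, STT3A rose (0.39), ALG10 fell (-0.33) and 2 of the 4 listed did not pass, while after the rescaling none rose and ALG10 and DPAGT1 fell. Membrane insertion genes in ARVM gave 8 higher and 5 lower of 13. Their 61.5% higher lay near the 53.9% of all listed genes that rose. Snd1 (1.07) is known as an RNA-binding coactivator rather than an insertion factor, and without it 7 rose and 5 fell of 12. Tram1 (0.75), a translocon protein, rose most among the others, and Emc9 (-1.57) and Emc6 (-1.22), subunits of the ER membrane complex, fell most. In Cfib none of 3 rose, and EMC10 (-0.27) and CCDC47 (-0.22) fell. Genes of ER exit and Golgi transport gave 17 higher and 5 lower of 23 in ARVM, from Ergic3 (1.53) and Yipf5 (1.22) to Arfgap2 (-0.56) and Rab1b (-0.92). In Cfib all 8 rose, GOLGA2 by 0.68 and YIF1A by 0.34, though only 1 of these 8 passed after the rescaling.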

How the data were processed

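RNA of 12 libraries in 4 groups of 3 was sequenced, and the authors aligned the reads with HISAT2 and StringTie to rn6 (ARVM) or bosTau8 (Cfib) and normalised with DESeq2. Versions are not given in the sources used here. The ARVM table as deposited holds a signal, the reads per gene over a size factor of the library. Within 0.01 reads, 100% of them came out as whole reads (the smallest value of PH-CM library ha211 being 2 reads). For Cfib the deposited signal behaves like FPKM or TPM, with gene length and library total divided out. Which of these it is was not settled, and the depth is unknown. The authors listed only genes with a value over 1 in a condition and a p under 0.05 between groups.

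Groups were compared per table with limma 3.58.1 (R 4.3.3, eBayes with trend) on log2(value + 1). P-values were adjusted over all listed genes by the Benjamini-Hochberg method, at a threshold of 0.05. Fold changes are on that scale and understate changes of low genes. Fold values in means or ratios use the deposited values. No minimum value was applied. On the whole reads, edgeR 4.0.16 (quasi-likelihood, TMM) and DESeq2 1.42.0 were alternatives. Within-library ratios (Python 3.11.15) were described with no test. The tests were checked on simulated data in which most genes did not change. That check does not cover tables of selected genes such as these. Other alternatives were pseudocounts of 0.1 and 10, a minimum mean of 5 (Cfib) or 50 (ARVM), eBayes without trend, rescaling by the median of ratios, each library left out, a replicate block (Cfib), averaging of the PH Cfib libraries, and a log2 fold change of at least 1. The ratios were added after the values had been seen.

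The members and lists were chosen with earlier results of these data known. Genes were named by rule. All Cfib members, all members in both tables, in each role the 2 members that rose most and the 2 that fell most, members that did not pass and transcription factors were named, and up to 2 rises and 2 falls of each other list. Further members were named after their values had been seen, to complete a complex or family. Promoters are RefSeq sequence of GRCr8, matched by symbol, and no GRCr8 position was set against rn6. Proteomic, imaging and functional data of the study were not used here.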

Additional observations from a re-analysis of the deposited data

How the results depend on the processing

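No alternative turned the direction of a named ARVM gene, and 120 of 138 recomputed counts stayed within 1.5 times the reported one. For 71 named genes, 877 of 921 recomputed results kept direction and side of the threshold, 39 no longer passed, 2 (Sar1a with a pseudocount of 0.1 and without PH-CM library ha209) newly passed and 3 turned. The last were KDELR1 (-0.0053), TMED10 (-0.0090) and TMED7 (-0.11) in Cfib after rescaling by the median of ratios. The rescaling, with factors from the selected, listed genes alone, moved the log2 fold changes of all listed genes by a median of -0.27 in Cfib and -0.020 in ARVM. That rescaling left 6 of 12 Cfib members higher, 11 of 22 other Cfib genes of the 5 further lists higher, and 5 of the 10 genes in both tables higher in both. Averaging the PH Cfib libraries into 1 sample left 3 members higher and 0 lower, 9 other genes higher and 0 lower, and 3 in both tables, with fewer samples in the fit. A log2 fold change of at least 1 left 13 ARVM members higher and 2 lower, 22 other ARVM genes higher and 3 lower, 2 Cfib members higher and 0 lower, and 2 other Cfib genes higher and 0 lower. Rises of that size made up 22.8% of ARVM members and 25.6% of the other ARVM genes, below the 32.5% of all listed ARVM genes. In Cfib they made up 15.4% and 6.9%, below the 19.8% of all listed Cfib genes. With each library left out, 48 to 50 ARVM members were higher and 6 lower, and 10 to 12 Cfib members higher and 0 to 1 lower. Where calls were lost, the cause was not tested.

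Cfib libraries of equal number had correlations of their deviations of 0.258, 0.0312 and 0.259, and those of unequal number had -0.245 to 0.102. With 3 libraries per group, these values cannot settle whether equal numbers mark a pairing. With a replicate block, 12 Cfib members were higher and 1 lower, and the 10 shared genes were again called in both. No paired analysis was possible for ARVM because its groups share no replicate numbers. Depth limits Pdia5 and Sec14l4 in ARVM, at 10 to 14 and 0 to 7 reads in fresh libraries, and the selection of listed genes limits every share given.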
